A study of Mus musculus with 9 samples.

Results

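Cytochrome P450 enzymes of families 1 to 4 were followed in the livers of mice that carried a doxycycline-inducible Mycl or c-Myc transgene. The genes described are the protein-coding rows of the count table whose mouse symbol is Cyp, a family number from 1 to 4 and a letter, and which reached 10 or more counts in at least 3 of the 9 libraries. Of 81 such rows among the 21703 rows of the table, 55 met this rule and fell into 17 subfamilies. The other 26 did not meet it: 13 had no count in any library, and the highest count of any of them was 13. No member reached 10 counts in libraries of 1 group only, and all 55 passed the filter on low counts of the test. Cyp4f39 reached 10 counts in 1 control, 1 Mycl liver and 3 c-Myc livers, and so met the rule only with the c-Myc group. Cyp3a44 did so in 2 controls and 2 Mycl livers, and needed both groups.

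The 9 livers came from 4-week-old C57BL/6J mice in 3 groups of 3. Every mouse carried R26-M2-rtTA, the doxycycline-dependent activator placed at the Rosa26 locus, which is active in most cell types, so induction was not restricted to hepatocytes. In controls the second transgene was Col-TetOP-Mycl-ires-mCherry and no drug was given. Mice of that genotype that were injected intraperitoneally with doxycycline (0.2 ml at 2.0 mg/ml) and examined 48 h later are called Mycl livers. The c-Myc livers, with Col-TetOP-c-Myc-ires-mCherry in its place, were injected likewise and collected at 48 h. Both induced groups were compared with the same 3 controls. Livers given doxycycline without a MYC transgene, and untreated livers of the c-Myc line, were not analysed here, so drug and transgene cannot be told apart in either comparison with controls. In c-Myc against controls the line differs as well, and in c-Myc against Mycl, where both groups had the drug, line and transgene cannot be told apart. The labels number the livers within a group but do not say that each number is a separate animal, and the p-values measure the spread between these samples only.

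P450 enzymes are heme proteins of the endoplasmic reticulum that insert an oxygen atom into their substrate with electrons passed on by the reductase Por. Families 1 to 3 oxidise drugs, toxins, steroids and, for several Cyp2c and Cyp2j enzymes, arachidonic acid, while family 4 oxidises fatty acids at their far end. In hepatocytes the genes are switched on by nuclear receptors and the aryl hydrocarbon receptor Ahr, many are expressed mainly around the central vein, and several differ between male and female mice through the pattern of growth hormone release.

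Library totals ranged from 11013412 to 20079232 counts. Mycl rose in the Mycl livers by 3.61 on the log2 scale (adjusted p = 0.00756) and Myc in the c-Myc livers by 4.60 (adjusted p = 0.00102). The reporter transcript that is made with the transgene reached 52.3 to 270 CPM (counts per 1e+06, after scaling with trimmed-mean factors) in the Mycl livers and 76.4 to 282 CPM in the c-Myc livers, against 0.316 to 1.09 CPM in controls. All 10 hepatocyte markers were detected and none passed the test in any comparison. Their summed level was 169700 to 191000 CPM in controls, 110400 to 176800 CPM in Mycl livers and 92210 to 136400 CPM in c-Myc livers, so that all c-Myc livers lay below the controls. The median log2 fold change of these markers was -0.10 with Mycl and -0.66 with c-Myc, and their part in the P450 values was not tested. Mycl liver 3 stood apart in several members described here. Mycl liver 1 carried an excess of short transcripts, with a median log2 difference from the control mean of 1.46 for genes with transcripts under 800 nt, against at most 0.26 in every other library. Counts of members without these livers stand beside the results below, and none are given for the other gene lists. In whole liver, fewer cells of a type and less RNA per cell cannot be told apart.

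P450 transcripts of families 1 to 4 took up less of the induced livers' RNA than of the controls'. In the 3 controls they made up 2.45%, 2.34% and 2.40% of all counts. The Mycl livers stood at 1.38%, 1.68% and 1.91%, and the c-Myc livers at 1.46%, 1.19% and 1.74%. All 6 induced livers were below all 3 controls, and the 2 induced groups overlapped. The c-Myc liver with the most reporter (282 CPM) had the smallest share and the one with the least (76.4 CPM) the largest. Among the Mycl livers the order was the opposite, with the largest share in the liver with 270 CPM of reporter and the smallest in the one with 52.3 CPM. These are Mycl livers 3 and 1, the livers set apart above, and each order rests on 3 livers.

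In the edgeR quasi-likelihood test with Benjamini-Hochberg adjustment over 12651 genes, 27 of the 55 members fell and 2 rose in c-Myc livers against controls, with 26 not passing. Over all genes tested, 8.88% were called lower and 11.8% higher in that comparison, and the median log2 fold change was -0.86 for the members and -0.05 for all genes. With library totals as the scaling, all genes shifted by 0.36 on the log2 scale, the members' median lay 0.82 below the new median of all genes, and 20 members fell while 5 rose, where 2.66% of all genes were called lower and 25.1% higher. With the trimmed-mean factors it lay 0.80 below. The 2 members that rose, Cyp2a4 and Cyp2c38, and 10 of the 27 that fell passed in all 20 alternative settings: Cyp2c40, Cyp2c55, Cyp2c67, Cyp2c68, Cyp2c69, Cyp2c70, Cyp2g1, Cyp2j5, Cyp2j6 and Cyp4a32. Each of the other 17 missed the threshold in at least 1 alternative: 17, 10 and 12 members fell when control 1, 2 or 3 was left out, and 13 and 12 when c-Myc liver 1 or 2 was left out. Lower calls over all genes went from 1124 to between 300 and 451 in those 5 fits.

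In Mycl livers, 3 members fell, none rose and 52 did not pass, where 0.964% of all genes were called lower and 2.24% higher. The 3 were Cyp4a12a, Cyp4a12b and Cyp4a32, all of the fatty acid hydroxylase subfamily Cyp4a, and all 3 also fell in c-Myc livers. The members' median log2 fold change was -0.50, against 0.01 for all genes, and 41 of the 55 estimates were negative. At an unadjusted p under 0.05, 21 members were lower and 27 differed in all, where 9.06% of all genes were lower and 20.1% differed. DESeq2 called 14 members lower and 2 higher, and 2.70% of all genes lower and 5.88% higher. Leaving out control 1, 2 or 3 left Cyp4a12a as the single call, with 9, 20 and 18 lower calls over all genes. Leaving out Mycl liver 2 gave 7 lower calls and 1 higher, with 178 and 539 over all genes. Without Mycl liver 1, 3 members rose, namely Cyp1b1, Cyp2b9 and Cyp4f16, and 3 fell. Over all genes that fit gave 471 higher and 127 lower calls. Without Mycl liver 3, 2 fell, Cyp4a12a and Cyp4a10, and 0 rose, with 27 lower and 110 higher calls over all genes.

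The CPM of the 2 groups did not overlap for 26 members that were lower and 4 that were higher in every Mycl liver, where 16.2% and 13.2% of all genes did so. For c-Myc, 37 members were lower and 7 higher without overlap, against 28.1% and 22.6% of all genes. The estimates had the same sign in both comparisons for 48 members, 40 negative and 8 positive, but the shared controls tie the comparisons together.

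**Figure D1:**
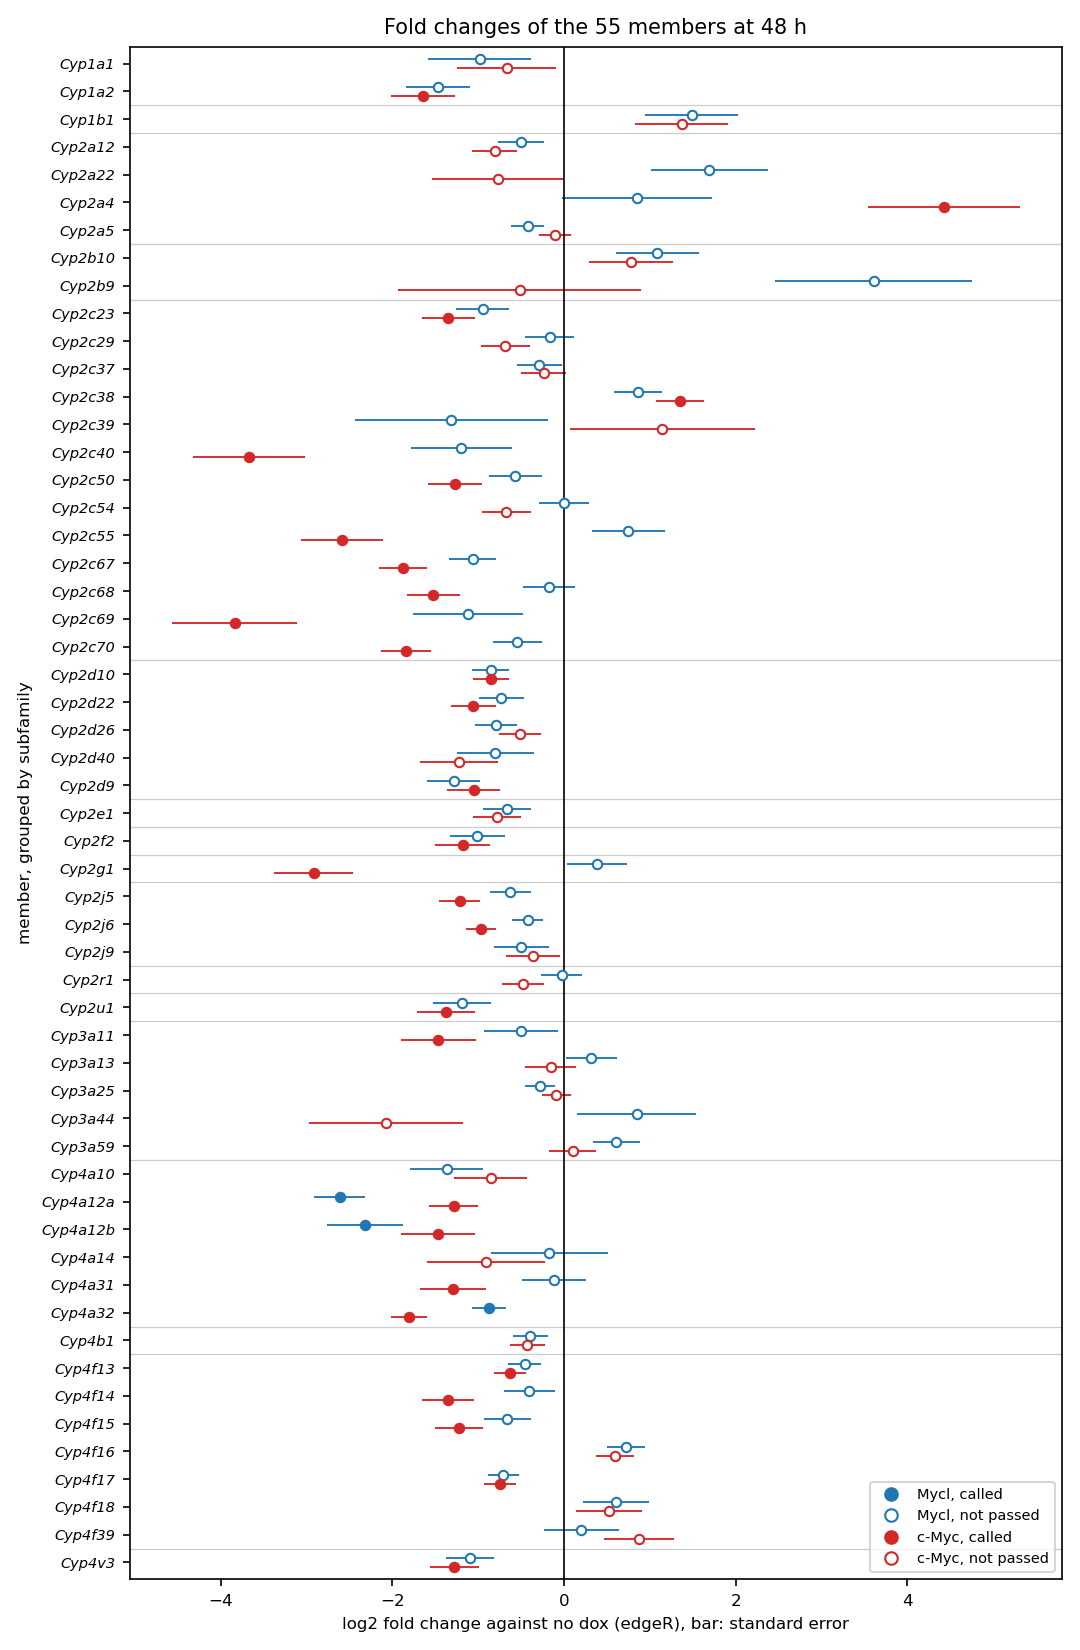
Log2 fold changes (x axis, edgeR, with standard errors as bars) of the 55 members (y axis, grouped by subfamily) in Mycl livers (blue) and c-Myc livers (red) against the same 3 controls; filled points passed the test. Most points lie left of 0, 3 blue points and 29 red points are filled, and among the members that passed between the 2 induced groups the colours lie farthest apart in Cyp2a4, Cyp2c55 and Cyp2g1.

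By subfamily, the summed CPM of Cyp2c fell from 5386 ± 248 CPM (SD, n = 3) in controls to 3901 ± 526 CPM in Mycl and 2317 ± 595 CPM in c-Myc livers, a description of sums with no test of its own. Cyp1a stood at 0.36 of the control mean with Mycl and 0.32 with c-Myc. Cyp4a stood lower with Mycl, at 0.34, than with c-Myc, at 0.45. Cyp2d stood at 0.50 and 0.55 of the control mean. For Cyp2c, Cyp2j, Cyp4f and Cyp3a the c-Myc mean was the lower, at 0.43, 0.44, 0.44 and 0.44 of the control mean, against 0.72, 0.66, 0.73 and 0.74 with Mycl. Cyp2a stood at 0.72 and 0.73. The Cyp3a and Cyp4a means of the Mycl group each rest on livers far apart, since Mycl liver 3 had 7231 CPM of Cyp3a against 3770 and 2584 CPM in the others, and 319 CPM of Cyp4a against 110.5 and 186 CPM.

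**Figure D2:**
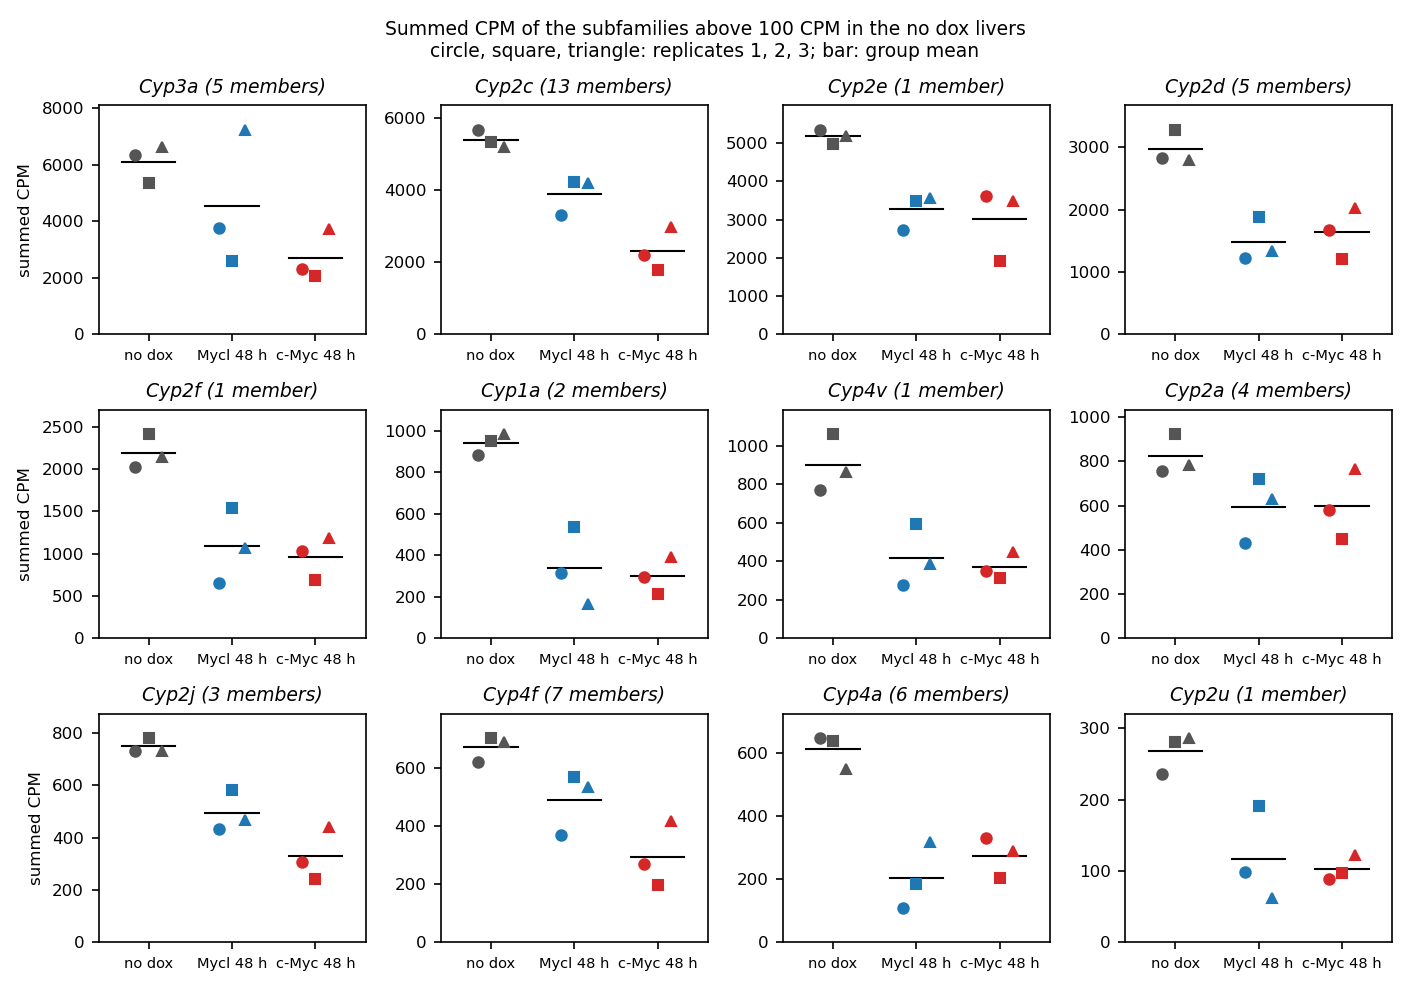
Summed CPM (y axis, linear from 0) of the 12 subfamilies above 100 CPM in the controls, for each liver of the 3 groups (x axis); black bars are group means. Every subfamily shown except Cyp2a and Cyp3a lies below every control in all 6 induced livers, and the triangle of Mycl liver 3 lies above the controls in Cyp3a.

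Ranked by CPM per kilobase of the longest annotated transcript, the most abundant members were Cyp2e1, Cyp3a11, Cyp2f2 and Cyp2c70. Cyp2e1, which oxidises ethanol and paracetamol around the central vein, had 5336, 4981 and 5186 CPM in controls, 2734, 3490 and 3562 CPM in Mycl and 3614, 1918 and 3494 CPM in c-Myc livers. Every induced liver lay below every control, yet neither difference passed the test, at log2 -0.66 (standard error 0.28, edgeR adjusted p = 0.220) and -0.78 (0.28, adjusted p = 0.0749).

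Cyp3a11, the main drug-oxidising Cyp3a of mouse liver and a target of the pregnane X receptor, had 5470, 4553 and 5795 CPM in controls. The Mycl livers had 2995, 1889 and 6259 CPM and the c-Myc livers 1544, 1374 and 2813 CPM. Mycl liver 3 was above all controls and the other 2 below them, and the c-Myc livers were all below. Cyp3a11 fell with c-Myc by 1.47 on the log2 scale (standard error 0.44, adjusted p = 0.0400) and passed in 13 of the 20 alternatives, and its Mycl value did not pass (adjusted p = 0.525; log2 -0.51, or -1.06 without Mycl liver 3). Of the other Cyp3a members, Cyp3a25 had 640.0, 568 and 585 CPM in controls, 552, 436 and 490.5 CPM with Mycl and 528, 511 and 645 CPM with c-Myc. Its c-Myc livers overlapped the controls, its Mycl livers lay just below them, and neither difference passed. Cyp3a13 and Cyp3a59 did not pass either, and both were highest in Mycl liver 3, at 326 and 154 CPM.

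Cyp2f2, the naphthalene-oxidising enzyme that marks hepatocytes near the portal vein, fell with c-Myc. Controls had 2028, 2415 and 2139 CPM, Mycl livers 651, 1542 and 1070 CPM and c-Myc livers 1027, 689 and 1184 CPM. The drop with c-Myc was 1.18 on the log2 scale (standard error 0.32, adjusted p = 0.0272), and the Mycl difference of -1.01 did not pass (adjusted p = 0.112), though all 6 induced livers were below the controls.

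**Figure D3:**
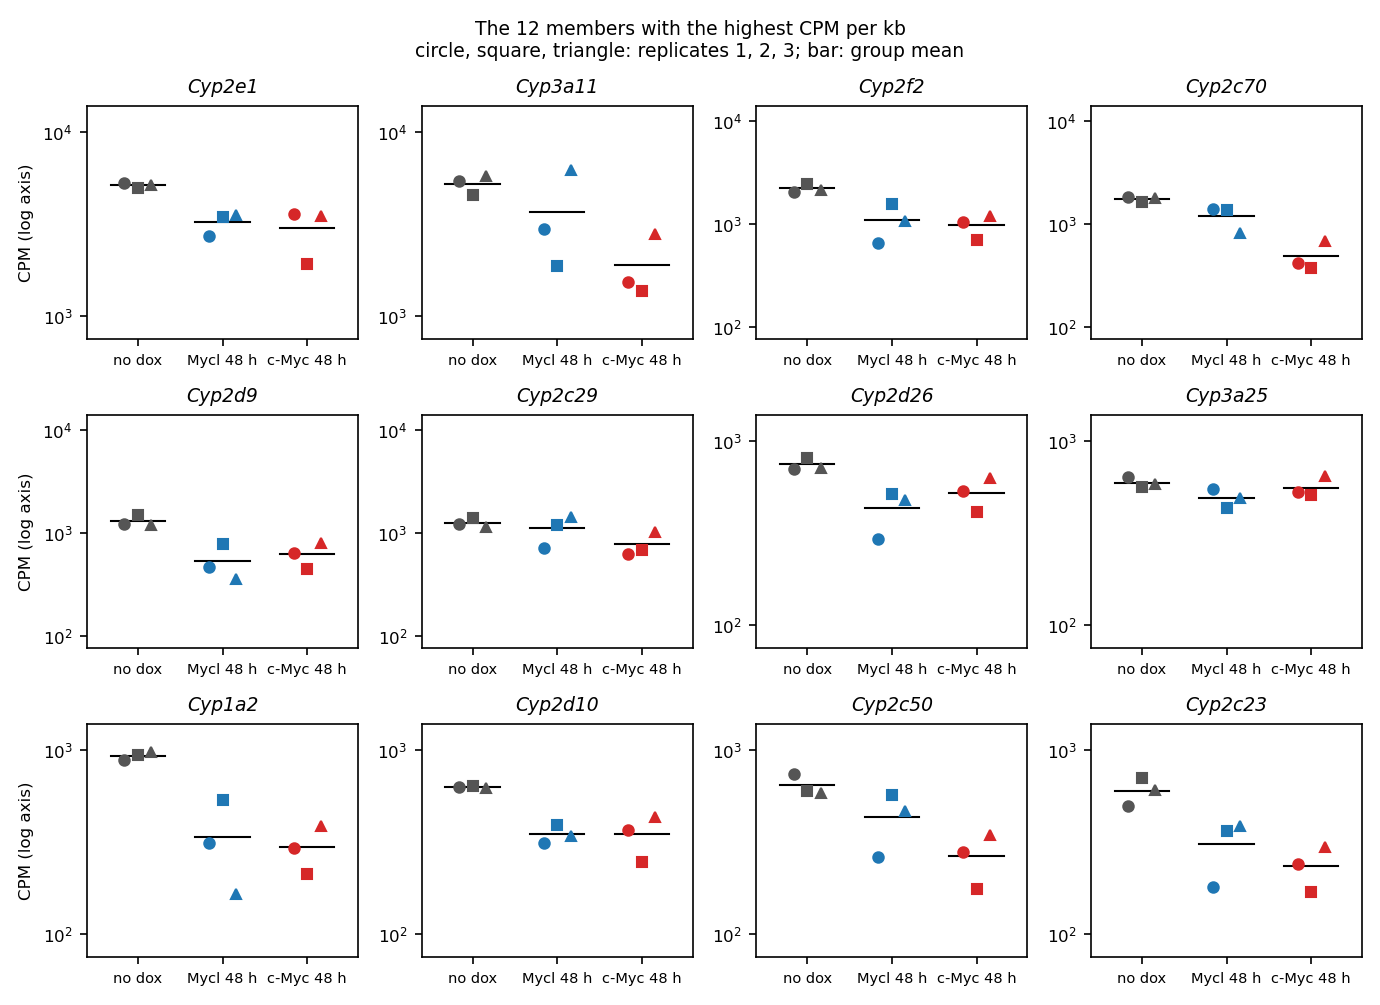
CPM (y axis, log scale) of the 12 members with the highest CPM per kilobase in each liver of the 3 groups (x axis); black bars are group means. Cyp2e1, Cyp2f2, Cyp2c70, Cyp2d9, Cyp2d26, Cyp1a2, Cyp2d10, Cyp2c50 and Cyp2c23 lie below every control in all 6 induced livers, Cyp3a25 stays near its control level, and Mycl liver 3 (triangle) is highest in Cyp3a11.

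The Cyp1 family, which answers to the aryl hydrocarbon receptor, was carried by Cyp1a2, the enzyme that clears caffeine, with 99.8% of the Cyp1a sum. Cyp1a2 had 883, 948 and 982 CPM in controls. It had 316, 536 and 166 CPM in Mycl and 294, 214 and 391 CPM in c-Myc livers, all below the controls. It fell with c-Myc by 1.65 on the log2 scale (standard error 0.38, adjusted p = 0.0136), and the Mycl difference of -1.47 did not pass (standard error 0.37, adjusted p = 0.0639). Its neighbour Cyp1a1, a classic induced target of the same receptor, was low. Cyp1a1 had 1.53, 1.58 and 2.15 CPM in controls, 1.72, 0.597 and 0.487 CPM with Mycl and 0.652, 0.522 and 2.19 CPM with c-Myc, with overlapping groups, and it did not pass. Cyp1b1 is expressed mainly outside hepatocytes. Cyp1b1 had 0.93, 0.506 and 1.35 CPM in controls, 0.903, 2.39 and 4.26 CPM with Mycl and 2.17, 3.24 and 1.66 CPM with c-Myc. The c-Myc livers were above the controls, the Mycl livers overlapped them, and neither passed in the full set of libraries. Stellate cell markers summed to 578 to 726 CPM in controls, 527 to 1133 CPM with Mycl and 928 to 1815 CPM with c-Myc. Of the 8 markers, Col1a1 and Des were called higher with c-Myc and 6 did not pass, where 11.8% of all genes were called higher. None passed with Mycl. With c-Myc the mean of Col1a1 went from 64.0 to 457 CPM and that of Col3a1 from 222 to 445 CPM. Dcn, from 135 to 126 CPM, and Reln, from 167.5 to 107 CPM, were lower. The part of stellate cells in the Cyp1b1 values was not tested.

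Cyp2c was the largest subfamily, with 13 members on chromosome 19 of mm10, 12 of them between 39007019 and 40187333. With c-Myc 8 of them fell, 1 rose and 4 did not pass. With Mycl none passed. Cyp2c70, which makes the muricholic acids typical of mouse bile, was the most abundant, with 1809, 1621 and 1774 CPM in controls. Mycl livers had 1397, 1359 and 812 CPM and c-Myc livers 410, 366 and 678 CPM, and the 3 groups did not overlap. Its drop with c-Myc was 1.84 on the log2 scale (standard error 0.29, adjusted p = 0.00260). No stretch of 50 bases of the Cyp2c70 transcript examined was found in another gene's transcript.

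The largest drops with c-Myc were in Cyp2c69 and Cyp2c40, neighbouring near-copies that are female-biased in mouse liver, with Cyp2c40 known for oxidising arachidonic acid. Cyp2c40 had 216, 90.7 and 127 CPM in controls, 60.4, 18.0 and 111 CPM with Mycl and 13.7, 5.12 and 15.3 CPM with c-Myc. Cyp2c69 had 98.4, 33.5 and 48.4 CPM in controls, 31.3, 6.13 and 45.6 CPM with Mycl and 5.49, 1.72 and 5.46 CPM with c-Myc. In both genes the c-Myc livers lay below all others, and the Mycl livers overlapped the controls. Cyp2c40 fell by 3.67 on the log2 scale with c-Myc (standard error 0.65, adjusted p = 0.00431) and Cyp2c69 fell by 3.84 (0.73, adjusted p = 0.00590), or by 3.23 without control 1 (adjusted p = 0.0232). Both genes varied together within the groups, lowest in the same liver of each group.

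The open reading frames of Cyp2c40 and Cyp2c69 were identical at 97.9% of 1563 aligned bases, and 72.1% of the 50-base windows of the Cyp2c40 transcript also occur in another gene. Their separate values are therefore uncertain. Their promoters, from 250 bases before to 50 after the start in RefSeq (GRCm38.p6), are shown because the genes moved together. Capitals mark the 3 of 270 aligned bases that differ, and the Cyp2c69 window starts 30 bases further along.

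Cyp2c40 promoter, chr19:39812765-39813064, minus strand: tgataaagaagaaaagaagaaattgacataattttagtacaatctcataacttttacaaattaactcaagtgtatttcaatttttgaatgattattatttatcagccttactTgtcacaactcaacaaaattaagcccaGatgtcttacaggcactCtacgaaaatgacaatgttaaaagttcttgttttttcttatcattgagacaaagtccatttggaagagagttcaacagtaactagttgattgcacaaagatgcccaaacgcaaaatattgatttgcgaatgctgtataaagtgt

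Cyp2c69 promoter, chr19:39886720-39887019, minus strand: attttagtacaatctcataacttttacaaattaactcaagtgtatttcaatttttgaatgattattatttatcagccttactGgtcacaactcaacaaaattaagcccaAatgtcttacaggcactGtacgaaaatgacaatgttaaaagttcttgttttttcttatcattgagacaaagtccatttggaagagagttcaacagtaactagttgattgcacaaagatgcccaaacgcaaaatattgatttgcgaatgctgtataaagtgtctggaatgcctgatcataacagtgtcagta

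Cyp2c55, an enzyme inducible through the receptors CAR and PXR, went apart in the 2 induced groups. Controls had 21.7, 11.2 and 9.87 CPM, Mycl livers 23.7, 16.1 and 32.7 CPM and c-Myc livers 0.924, 2.51 and 3.79 CPM. The c-Myc livers were below all others and the Mycl livers overlapped the controls. With c-Myc it fell by 2.59 on the log2 scale (standard error 0.48, adjusted p = 0.00521), and only 0.514% of its 50-base windows occur in another gene. Cyp2c67 and Cyp2c68 also fell with c-Myc, by 1.88 (standard error 0.28, adjusted p = 0.00186) and 1.52 (0.31, adjusted p = 0.00783), from control means of 253 and 265 CPM. By liver, Cyp2c67 had 231, 278 and 249 CPM in controls, 121, 142 and 99.1 CPM with Mycl and 68.8, 40.4 and 96.6 CPM with c-Myc. The 3 groups of Cyp2c67 did not overlap. Of the 50-base windows of Cyp2c67 and Cyp2c68, 52.8% and 43.3% occur in other genes, mostly Cyp2c40, so their separate values are uncertain too. Cyp2c68 had 361, 191 and 242 CPM in controls, 226, 159.9 and 316 CPM with Mycl and 102, 68.0 and 107 CPM with c-Myc, where the Mycl livers overlapped the controls.

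The arachidonic acid epoxygenases Cyp2c50 and Cyp2c23 fell with c-Myc by 1.27 and 1.35. Cyp2c50 had 745, 604 and 585 CPM in controls, 264, 574 and 466 CPM with Mycl and 279.9, 177 and 346 CPM with c-Myc. Cyp2c23 had 496, 704 and 606 CPM in controls, 181, 367 and 386 CPM with Mycl and 242, 169.7 and 297 CPM with c-Myc. In both genes every induced liver was below every control. Cyp2c29 had 1205, 1378 and 1135 CPM in controls, 705, 1187 and 1417 CPM with Mycl and 622, 676 and 1019 CPM with c-Myc, so that the Mycl livers overlapped the controls and the c-Myc livers lay below them. Cyp2c54, 95.2% identical to Cyp2c50 in its reading frame, had 261, 215 and 199.9 CPM in controls, 147, 228 and 300.5 CPM with Mycl and 153, 93.8 and 178 CPM with c-Myc, the c-Myc livers again below the controls. Cyp2c29, Cyp2c54 and Cyp2c37 did not pass, with log2 differences of -0.68, -0.67 and -0.24.

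Cyp2c38 was the member of this cluster that rose with c-Myc. It had 12.6, 16.5 and 14.2 CPM in controls, 20.7, 20.0 and 37.9 CPM with Mycl and 48.4, 34.6 and 27.9 CPM with c-Myc. All 6 induced livers lay above the controls. The rise with c-Myc was 1.36 on the log2 scale (standard error 0.28, adjusted p = 0.00866), and the Mycl difference of 0.86 did not pass (adjusted p = 0.125).

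Cyp2a4, a female-biased steroid hydroxylase, showed the largest rise of any member. It had 1.26, 4.30 and 2.79 CPM in controls, 3.43, 2.82 and 8.53 CPM with Mycl and 53.2, 8.20 and 117 CPM with c-Myc. Every c-Myc liver was above every control, but the lowest, c-Myc liver 2, was within the range of the Mycl livers. The rise was 4.43 on the log2 scale (standard error 0.88, adjusted p = 0.00749), and 3.47 without c-Myc liver 3 (adjusted p = 0.0149). Cyp2a5, the enzyme that oxidises coumarin and nicotine, encoded nearby on chromosome 7, had 175, 243 and 166 CPM in controls, 127, 178 and 129 CPM with Mycl and 176, 181 and 186 CPM with c-Myc. Its groups overlapped and it did not pass, at log2 -0.11 with c-Myc (standard error 0.19, adjusted p = 0.733).

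The open reading frames of Cyp2a4 and Cyp2a5 differ at 23 of 1485 aligned bases, and 38.0% and 40.8% of the 50-base windows of their transcripts occur in another gene, so the split of reads between them is uncertain. Their RefSeq promoters (GRCm38.p6) are shown because the genes differed in response although 98.3% of 299 aligned bases were the same. Capitals mark the 5 bases that differ.

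Cyp2a4 promoter, chr7:26306942-26307241, plus strand: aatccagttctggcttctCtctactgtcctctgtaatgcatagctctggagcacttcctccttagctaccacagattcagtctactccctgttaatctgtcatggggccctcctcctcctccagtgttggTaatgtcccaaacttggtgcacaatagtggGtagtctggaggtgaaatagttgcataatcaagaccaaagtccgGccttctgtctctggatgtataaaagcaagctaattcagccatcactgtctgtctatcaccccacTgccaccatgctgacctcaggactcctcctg

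Cyp2a5 promoter, chr7:26835089-26835388, plus strand: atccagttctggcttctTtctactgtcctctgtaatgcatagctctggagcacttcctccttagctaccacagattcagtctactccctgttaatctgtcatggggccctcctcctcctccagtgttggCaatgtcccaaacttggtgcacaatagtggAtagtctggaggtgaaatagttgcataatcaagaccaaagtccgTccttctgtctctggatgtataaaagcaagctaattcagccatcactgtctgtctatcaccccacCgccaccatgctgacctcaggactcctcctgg

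Of the other small Cyp2 subfamilies, Cyp2g1, best known from the olfactory mucosa, was low. The c-Myc livers had only 4, 1 and 6 counts of Cyp2g1. Controls had 1.53, 1.83 and 1.59 CPM, Mycl livers 2.62, 1.95 and 1.95 CPM and c-Myc livers 0.217, 0.0522 and 0.399 CPM. The 3 groups did not overlap, with Mycl highest and c-Myc lowest. Cyp2g1 fell with c-Myc by 2.92 on the log2 scale (standard error 0.46, adjusted p = 0.00241; log2 -3.56 without c-Myc liver 3), and its Mycl difference of 0.38 did not pass. Cyp2a12 and Cyp2a22, whose reading frames are 97.0% identical, did not pass. Cyp2a12 had 580.3, 672 and 616 CPM in controls, 296, 538 and 486 CPM with Mycl and 352, 257 and 459 CPM with c-Myc, so every induced liver was below every control. Cyp2a22 had 0.766, 2.97 and 0.477 CPM in controls, 3.79, 1.90 and 8.16 CPM with Mycl and 0.380, 0.888 and 1.26 CPM with c-Myc, where both induced groups overlapped the controls.

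Cyp2b10, the model target of CAR, and Cyp2b9, a female-biased relative, did not pass in any comparison. Cyp2b10 had 4.06 to 8.98 CPM in controls, 6.96 to 18.5 CPM with Mycl and 4.29 to 14.5 CPM with c-Myc. Cyp2b9 had 0.274 to 1.27 CPM in controls, 1.54, 1.90 and 24.1 CPM with Mycl and 0.0543 to 1.201 CPM with c-Myc. The Mycl mean of Cyp2b9 was thus set by Mycl liver 3: its log2 difference was 3.61 with that liver (adjusted p = 0.116) and 1.24 without it (adjusted p = 0.415).

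All 5 Cyp2d members had negative estimates in both comparisons, and 3 fell with c-Myc. Cyp2d9, a male-biased steroid hydroxylase, had 1200, 1479 and 1177 CPM in controls, 460, 770.5 and 353 CPM with Mycl and 629.5, 446 and 785 CPM with c-Myc. All induced livers were below the controls. The drop with c-Myc was 1.05 on the log2 scale (standard error 0.31, adjusted p = 0.0366), and the Mycl difference of -1.28 did not pass (0.31, adjusted p = 0.0542). Cyp2d10 had one of the tightest control groups of the abundant members, 632 ± 8.30 CPM (SD, n = 3), and stood at 349 ± 40.7 CPM with Mycl (log2 -0.86, adjusted p = 0.0586) and 350.0 ± 95.1 CPM with c-Myc, where it fell by 0.85 (adjusted p = 0.0196). By liver, Cyp2d10 had 635, 639 and 623 CPM in controls, 313, 394 and 341 CPM with Mycl and 369, 247 and 434 CPM with c-Myc. Cyp2d22 fell with c-Myc by 1.06. Cyp2d26 had 710.1, 817 and 720.3 CPM in controls, 294, 520.2 and 483 CPM with Mycl and 536, 411 and 631 CPM with c-Myc, all induced livers below the controls, and it did not pass. Cyp2d40 did not pass either, and Cyp2d40 had 69.6, 33.7 and 14.4 CPM across the Mycl livers, against 60.0 to 74.3 CPM in controls.

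Among the Cyp2j enzymes, which make epoxides of arachidonic acid, Cyp2j5 and Cyp2j6 fell with c-Myc. Cyp2j5 had 642, 676 and 643 CPM in controls, 372, 500 and 400 CPM with Mycl and 262, 199 and 382 CPM with c-Myc. Controls did not overlap the induced livers, which overlapped each other. The drop with c-Myc was 1.22 on the log2 scale (standard error 0.24, adjusted p = 0.00671). Cyp2j6 fell by 0.97 (0.18, adjusted p = 0.00548), from 90.7 ± 9.21 to 46.4 ± 9.43 CPM. By liver, Cyp2j6 had 85.9, 101 and 84.8 CPM in controls, 56.2, 79.7 and 66.7 CPM with Mycl and 43.0, 39.1 and 57.0 CPM with c-Myc, with all induced livers below the controls. These 2 genes have almost no close copy, with 0.174% and 0.422% of their 50-base windows found elsewhere. Cyp2u1, a fatty acid hydroxylase, fell with c-Myc by 1.38 (standard error 0.34, adjusted p = 0.0191), from 268 ± 28.0 to 103 ± 17.5 CPM. Cyp2r1, which carries out the liver's step in activating vitamin D, did not pass. Cyp2r1 had 21.6, 17.6 and 18.1 CPM in controls, 26.4, 16.7 and 13.5 CPM with Mycl and 15.9, 10.97 and 14.4 CPM with c-Myc, with the c-Myc livers below the controls and the Mycl livers overlapping both.

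Cyp4a was the subfamily in which members fell with Mycl. Cyp4a12a, a male-biased enzyme that hydroxylates arachidonic acid at its far end, lies on chromosome 4 of mm10 from 115299046 to 115332815. It had 227, 315 and 267 CPM in controls, 44.3, 58.1 and 29.6 CPM with Mycl and 135, 73.0 and 123 CPM with c-Myc. The 3 groups did not overlap, with Mycl lowest. It fell by 2.61 on the log2 scale with Mycl (standard error 0.30, adjusted p = 0.00464), in all 20 alternatives, and by 1.29 with c-Myc (0.28, adjusted p = 0.0118).

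Cyp4a12b, its near-copy with 23 of 1527 differing bases in the reading frame, had 83.0, 105 and 81.1 CPM in controls, 15.8, 29.3 and 8.41 CPM with Mycl and 39.6, 16.4 and 41.3 CPM with c-Myc. Its induced livers lay below the controls and overlapped each other. It fell by 2.32 (standard error 0.44, adjusted p = 0.0263) and 1.47 (0.43, adjusted p = 0.0357). Without Mycl liver 3, the lowest in both genes, Cyp4a12a still passed, at log2 -2.34 (adjusted p = 0.0157), and Cyp4a12b did not, at -1.93 (adjusted p = 0.0626). The transcripts share 48.9% and 49.4% of their 50-base windows, so their split is uncertain.

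Cyp4a32 had 21.1, 16.3 and 16.5 CPM in controls, 9.49, 9.87 and 9.99 CPM with Mycl and 6.36, 3.71 and 5.32 CPM with c-Myc. The 3 groups stood apart in steps, with no overlap. It fell by 0.87 with Mycl (standard error 0.20, adjusted p = 0.0448), a call that held in 7 of the 20 alternatives and ended without any 1 control, any 1 Mycl liver or c-Myc liver 1 or 3. It fell by 1.81 with c-Myc (0.21, adjusted p = 0.000594), the smallest adjusted p among the members. Of its 50-base windows 46.8% occur in other genes, mostly Cyp4a10.

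Cyp4a10 and Cyp4a14, the classic fatty acid hydroxylases induced through PPARA, did not pass with all libraries. Cyp4a10 had 117 to 197 CPM in controls, 23.9, 49.0 and 99.2 CPM with Mycl and 67.4 to 106 CPM with c-Myc, so the induced livers lay below the controls. Cyp4a14 had 107, 61.4 and 56.8 CPM in controls, 12.7, 30.1 and 157 CPM with Mycl and 39.4, 38.5 and 42.1 CPM with c-Myc. Mycl livers 1 and 2 had less Cyp4a14 than any control and Mycl liver 3 more. Without Mycl liver 3 the Cyp4a10 drop of 1.97 on the log2 scale passed (adjusted p = 0.0415), and the Cyp4a14 difference of -1.75 did not (adjusted p = 0.0648). Cyp4a31, 96.0% identical to Cyp4a32 in its reading frame, had 12.9, 7.72 and 11.1 CPM in controls, 4.34, 9.54 and 15.1 CPM with Mycl and 5.21, 3.92 and 3.79 CPM with c-Myc. Its c-Myc livers were below the controls and its Mycl livers overlapped them. It fell with c-Myc by 1.29 (standard error 0.38, adjusted p = 0.0379).

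**Figure D4:**
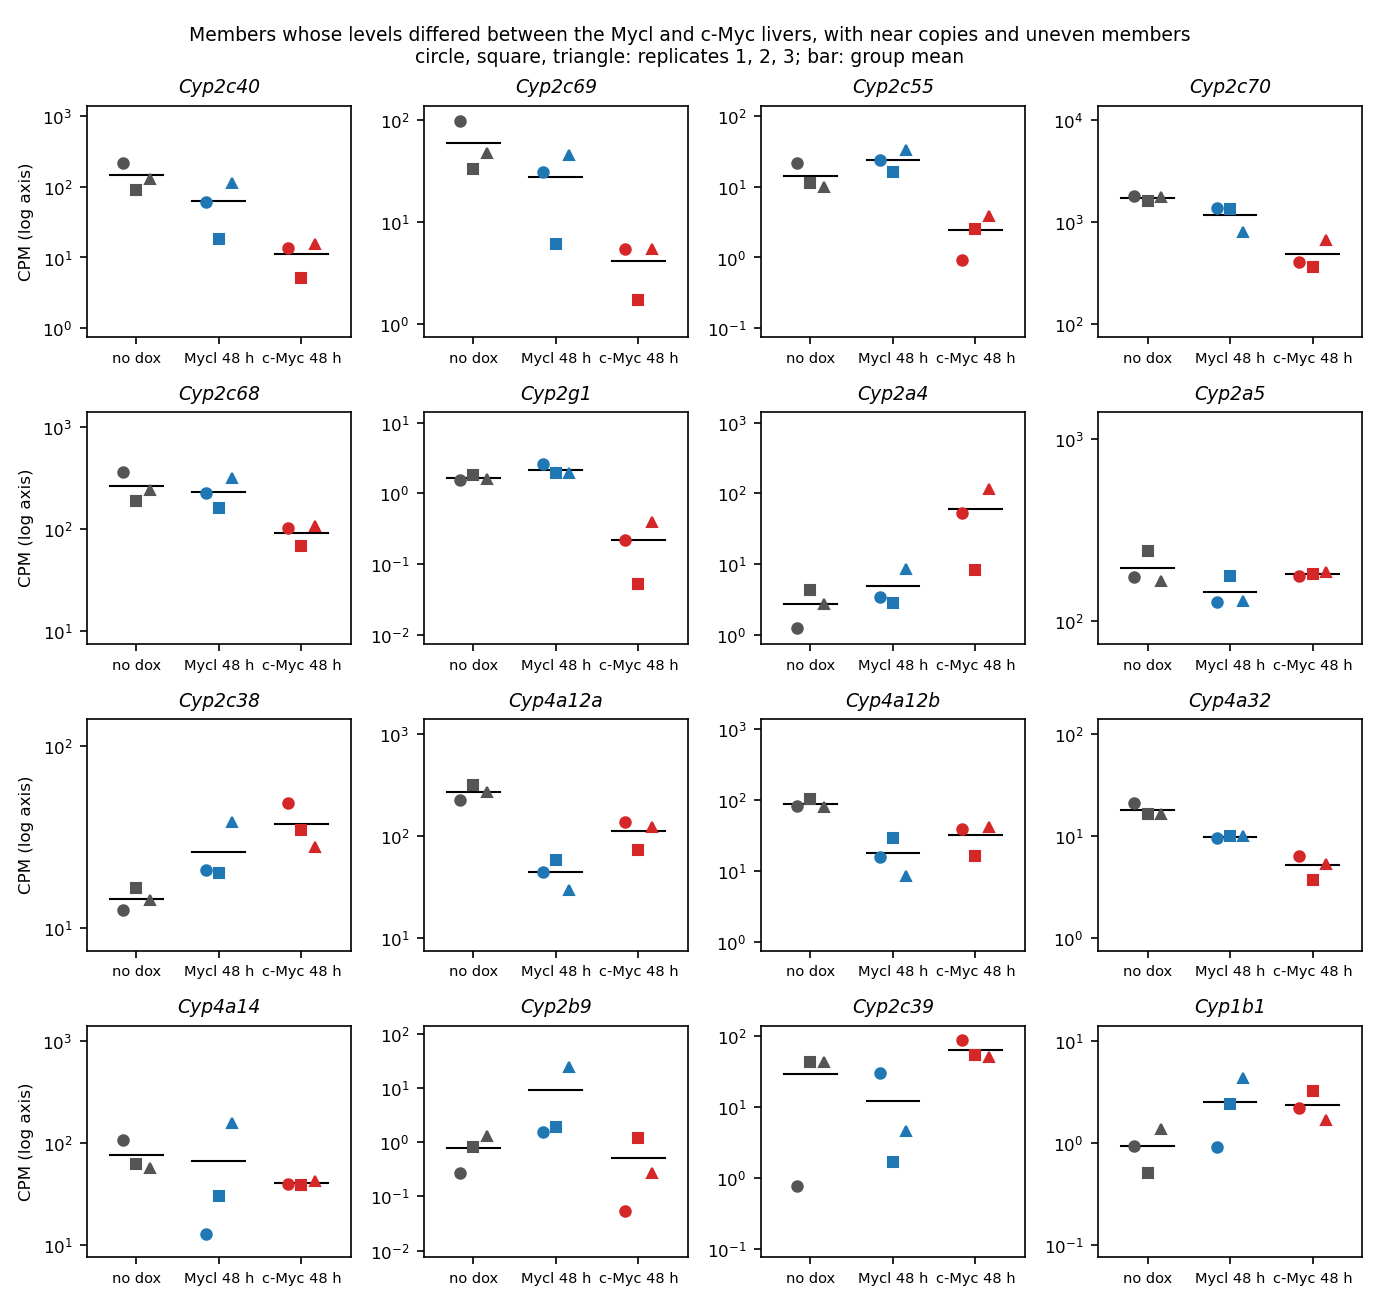
CPM (y axis, log scale, ranges differ between panels) in each liver of the 3 groups (x axis) for members that differed between Mycl and c-Myc livers, their near copies, and members with 1 far library; black bars are group means. Cyp2c55 and Cyp2g1 are low in c-Myc livers alone, Cyp4a12a is lowest with Mycl, Cyp2a4 is high with c-Myc beside a level Cyp2a5, single Mycl livers stand far above the others in Cyp4a14 and Cyp2b9, and Cyp2c39 is uneven within groups.

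In the Cyp4f subfamily, which inactivates leukotriene B4 and shortens the side chain of vitamin E, 4 of 7 members fell with c-Myc and none passed with Mycl. Cyp4f14, the most abundant, had 407, 477 and 461 CPM in controls, 244, 405 and 367 CPM with Mycl and 156, 112 and 259 CPM with c-Myc. Every induced liver was below every control. It fell with c-Myc by 1.35 on the log2 scale (standard error 0.30, adjusted p = 0.0119), Cyp4f15 by 1.23, Cyp4f17 by 0.75 and Cyp4f13 by 0.63. Cyp4f16, Cyp4f18 and Cyp4f39 had positive estimates in both comparisons, between 0.20 and 0.87, at group means of at most 5.32 CPM, and did not pass. Cyp4f39 met the count rule only with its c-Myc livers.

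Cyp4v3, the mouse counterpart of the human retinal fatty acid hydroxylase CYP4V2, had 769, 1060 and 862 CPM in controls, 275, 595 and 388 CPM with Mycl and 348, 314 and 447 CPM with c-Myc. All induced livers were below the controls. It fell with c-Myc by 1.28 (standard error 0.28, adjusted p = 0.0118), and the Mycl difference of -1.10 did not pass (adjusted p = 0.0648). Cyp4b1, mainly a lung enzyme, did not pass. Cyp4b1 had 18.8, 18.0 and 20.7 CPM in controls, 11.9, 15.6 and 16.1 CPM with Mycl and 13.0, 11.02 and 18.8 CPM with c-Myc, and the c-Myc livers overlapped the controls.

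Set directly against each other, c-Myc livers had less of 7 members and more of 2 than Mycl livers, and 46 did not pass. Over all genes 2.63% were called lower and 4.14% higher, and the median log2 difference was -0.31 for the members and -0.03 for all genes. The 7 lower members were Cyp2g1 (log2 -3.30, adjusted p = 0.00862), Cyp2c55 (log2 -3.34, adjusted p = 0.0107), Cyp4a32, Cyp2c70, Cyp2c68, Cyp2c40 and Cyp2c69, and each of them had also fallen with c-Myc against controls. Cyp2a4 was higher by 3.58 (standard error 0.83, adjusted p = 0.0361) and Cyp4a12a by 1.33 (0.29, adjusted p = 0.0307). Only Cyp2g1, with 4, 1 and 6 counts in the c-Myc livers, kept its call in all 20 alternatives. The count of lower members ran from 1 without c-Myc liver 2 to 11 without Mycl liver 1. Lower calls over all genes were 32 and 477 in those fits, against 333 with all libraries. Without control 1, 2 or 3 the count of lower members was 3, 2 and 2, where 134, 127 and 131 of all genes were lower. Without Mycl liver 3 it was 3, and without c-Myc liver 1 it was 2, where 190 and 27 of all genes were lower. The Cyp2a4 value was 2.63 without c-Myc liver 3 and 4.26 without Mycl liver 3, the Cyp2c40 value was -1.78 without Mycl liver 3, and the Cyp2g1 value was -3.94 without c-Myc liver 3. The 2 higher calls both ended without any 1 control, without Mycl liver 3 or without c-Myc liver 1.

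Members known to differ between the sexes in mouse liver moved in different ways. All 3 male-biased members (Cyp4a12a, Cyp4a12b and Cyp2d9) fell with c-Myc and 2 of them with Mycl, with a summed level of 1510 to 1899 CPM in controls, 391 to 858 CPM with Mycl and 535 to 950 CPM with c-Myc. Of the 5 female-biased members tested, Cyp2c40 and Cyp2c69 fell and Cyp2a4 rose with c-Myc, and Cyp2b9 and Cyp3a44 did not pass. None of the 5 passed with Mycl. Of all 55 members, 27 fell and 2 rose with c-Myc, and 3 fell with Mycl. Among all genes, 8.88% were called lower and 11.8% higher with c-Myc, and 0.964% and 2.24% with Mycl. The genes of the Y chromosome on the marker list summed to 125 to 211 CPM in all 9 livers. In Mycl liver 3 all 3 male-biased members had their lowest level of any liver, at 29.6, 8.41 and 353 CPM. Of the female-biased members, Cyp2b9 and Cyp3a44 had their highest level of any liver there, at 24.1 and 2.50 CPM. Cyp2c40 and Cyp2c69, at 111 and 45.6 CPM, were within the range of the controls, and Cyp2a4, at 8.53 CPM, was above the controls and within the range of the c-Myc livers. Outside these lists, Cyp2a22 was highest and Cyp2d40 lowest in that liver, at 8.16 and 14.4 CPM. Cux2, a female-biased regulator, had 6.40 CPM there and at most 4.02 CPM elsewhere. Cyp2a22, Cyp2d40 and Cux2 were picked out after their values were seen.

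The genes that supply microsomal P450 enzymes with electrons and heme were counted as a list. Por, the electron donor, had 158 to 188 CPM in controls, 104, 209 and 355 CPM with Mycl and 162 to 206 CPM with c-Myc and did not pass in any comparison. Alas1, the first enzyme of heme synthesis, rose with Mycl by 1.79 on the log2 scale (standard error 0.38, adjusted p = 0.0381), from 59.1, 54.7 and 87.8 CPM to 166, 138 and 393 CPM. Its c-Myc livers, at 63.7 to 103 CPM, overlapped the controls. Of the 18 genes for electron transfer and heme supply, 1 rose and 17 did not pass with Mycl. With c-Myc, Alad, Cyb5r3 and Pgrmc1 fell, Hmox1 rose and 14 did not pass. Among all genes, 2.24% were called higher and 0.964% lower with Mycl, and 11.8% higher and 8.88% lower with c-Myc. The medians of the 18 genes were 0.11 and -0.19.

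Of 30 regulators of P450 genes, 2 fell with Mycl and 9 with c-Myc, where 0.964% and 8.88% of all genes were called lower. None of the 30 rose, where 2.24% and 11.8% of all genes were called higher. Ppara, the fatty acid receptor upstream of Cyp4a genes, had 238, 250 and 252 CPM in controls, 103, 146 and 114 CPM with Mycl and 127, 89.0 and 113 CPM with c-Myc. It fell by 1.03 (standard error 0.18, adjusted p = 0.0198) and 1.18 (0.18, adjusted p = 0.00206), with the induced livers below every control and overlapping each other. Dbp, a clock-driven activator of P450 genes, fell by 1.91 and 2.54 (adjusted p = 0.0441 and 0.00386). Collection times of day were not given in the sources used here.

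Ahr, the activator of Cyp1a genes, had 71.6, 82.0 and 97.5 CPM in controls, 72.9, 124 and 99.4 CPM with Mycl and 40.0, 41.5 and 38.9 CPM with c-Myc. It fell with c-Myc by 1.06 on the log2 scale (standard error 0.19, adjusted p = 0.00488) and was lower in c-Myc than in Mycl livers (log2 -1.3, adjusted p = 0.0119). Cyp1a2 levels overlapped between those groups, and a link between Ahr and Cyp1a2 levels was not tested. Nr1h4, Tef, Ghr (the growth hormone receptor) and others made up the remaining c-Myc calls, with Ghr lower by 1.31 (standard error 0.28, adjusted p = 0.0108). The drug-sensing receptors Nr1i3 and Nr1i2 and the hepatocyte factor Hnf4a did not pass in any comparison, with log2 differences between -0.28 and 0.38.

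Of 22 other targets of the same receptors that were tested, 4 fell and 18 did not pass with Mycl, and 10 fell and 12 did not pass with c-Myc. None of these 22 rose against controls, and their median log2 fold changes were -0.56 and -0.78. Among all genes, 0.964% were called lower and 2.24% higher with Mycl, and 8.88% lower and 11.8% higher with c-Myc. Ehhadh and Acaa1b, enzymes of peroxisomal fatty acid oxidation and PPARA targets, fell in both, with log2 values of -1.04 and -1.07 for Mycl (adjusted p = 0.0295 and 0.0389) and -1.496 and -1.48 for c-Myc (adjusted p = 0.00126 and 0.00263). Of 10 markers of hepatocytes around the central vein, Tbx3, Axin2 and Rnf43 fell with Mycl, and these and Gulo, Oat and Glul with c-Myc, with a summed level of 2389 to 2573 CPM in controls, 1052 to 1576 CPM with Mycl and 948 to 1416 CPM with c-Myc. Of 10 periportal markers none passed with Mycl, and with c-Myc Ass1 and Hal fell while Hsd17b13 rose, from 243 to 432 CPM.

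Inflammation is known to lower P450 transcripts in liver, and 16 acute phase genes were counted as a list. Of the 16, Saa3, Orm2 and Lcn2 rose, Hamp fell and 12 did not pass with Mycl. With c-Myc, Lcn2, Saa1, Saa2, Saa3 and Orm2 rose and 11 did not pass. Among all genes, 2.24% were called higher and 0.964% lower with Mycl, and 11.8% higher and 8.88% lower with c-Myc. The median log2 fold change of the list was 0.58 with Mycl and 0.01 with c-Myc. Its summed level was 32080 to 34490 CPM in controls, 27570 to 50110 CPM with Mycl and 22260 to 36600 CPM with c-Myc, which overlapped. The most abundant genes of the list, such as Fga and Hpx at control means of 7700 and 5288 CPM, weigh most in that sum. Lcn2 stood at 6.78 ± 2.39 CPM (SD, n = 3) in controls, 159 ± 124 CPM with Mycl and 128 ± 106 CPM with c-Myc. Neutrophil and monocyte markers summed to 7.97 to 10.3 CPM in controls, 23.9 to 31.4 CPM with Mycl and 17.8 to 30.6 CPM with c-Myc. Of the 7 tested, Ccr2 and Itgam were called higher in both induced groups and 5 did not pass in either. Erythroid markers fell with c-Myc, 6 of 6 tested, from a sum of 228 to 300 CPM to 51.7 to 105 CPM. The part of these changes in the P450 values was not tested.

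RefSeq promoter windows (GRCm38.p6, 250 bases before to 50 after the start) were found for 44 of the 55 members, 49 windows in all. The letters TATAAA, searched on both strands, occurred in 23 of them (46.9%), against 13.6% of all 32851 windows. CACGTG, the sequence that MYC proteins bind best, occurred in 2 member windows (4.08%), those of Cyp2j6 and Cyp4v3, against 7.15% of all windows. GCGTG, the core of the site for the aryl hydrocarbon receptor, occurred in 20.4% against 32.4%, and TTCNNNGAA, the form bound by STAT factors, in 4.08% against 8.30%. A match of letters is a description of the window and not a bound site.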

How the data were processed

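Total RNA of 9 mouse livers was sequenced with a directional kit, per the labels' protocols. The submitters' processing notes name cutadapt 3.0, STAR 2.7.8a, HTSeq 0.11.2, DESeq2 1.30.0 and the build mm10. Whether counting used strand, and against which release of the annotation, is not given in the sources used here, so reads shared by near-identical or overlapping genes may be split or lost. The authors deposited raw counts per gene for all 9 libraries in 1 table.

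From these counts, edgeR 4.0.16 (R 4.3.3) fitted the quasi-likelihood model with 1 term per group to all 9 libraries, leaving 6 residual degrees of freedom, after filterByExpr with a minimum count of 10 and trimmed-mean (TMM) scaling. P-values were adjusted by Benjamini-Hochberg over 12651 genes, and genes under an adjusted p of 0.05 were called. The code was tested on simulated data. Alternatives used other scalings, filters and covariates, DESeq2 1.42.0, limma-voom (limma 3.58.1), and each library left out. CPM are counts per 1e+06 after TMM scaling. Coordinates come from the mm10 annotation, and promoters from RefSeq (GRCm38.p6).

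Values are given for every library for the 12 members with the highest level per kilobase, for called members (the 12 with the smallest adjusted p where more passed), for 8 members chosen for their role and for near-identical pairs. Further called members are given by their fold change. The members and all gene lists were chosen with earlier results of these data known. Regulators, partners and cell markers were counted as lists.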

Additional observations from a re-analysis of the deposited data

Results flagged for a closer look

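For 9 members the effect of c-Myc differed from that of Mycl in the direct edgeR contrast of the 2 induced groups, with adjusted p-values between 0.00862 and 0.0484. The log2 difference, c-Myc minus Mycl, was -3.34 for Cyp2c55, -3.30 for Cyp2g1, -2.72 for Cyp2c69, -2.48 for Cyp2c40, -1.35 for Cyp2c68, -1.29 for Cyp2c70 and -0.933 for Cyp4a32. It was 3.58 for Cyp2a4 and 1.33 for Cyp4a12a. Cyp2g1, with 4, 1 and 6 counts in the c-Myc livers, passed in all 20 alternatives. Cyp2c55 passed in 19, whereas Cyp2c69 passed in 9 and Cyp2a4 in 10. For Cyp2a4 the lowest c-Myc liver, at 8.20 CPM, was below the highest Mycl liver, at 8.53 CPM.

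Cyp2a22 is listed because every Mycl liver lay above the control mean and every c-Myc liver below it. The log2 difference was -2.47, and the direct contrast did not pass (edgeR adjusted p = 0.0686). The 3 controls themselves ran from 0.477 to 2.97 CPM.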

How the results depend on the processing

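With Mycl against controls, DESeq2 called 2 members higher and 14 lower, where 744 of all genes were higher and 342 lower. The table without a filter gave 6 lower members, where 136 of all genes were lower. A fit to the 6 libraries compared gave 6 lower, where 64 of all genes were. With c-Myc, library totals gave 5 higher members and the 6-library fit 4, where 3181 and 2325 of all genes were higher. Between c-Myc and Mycl, DESeq2 called 12 members lower and limma-voom 1 higher, where 745 of all genes were lower and 429 higher. The 6-library fit gave 0 higher and 2 lower there, where 35 of all genes were higher and 39 lower. The cause was not tested. With 1 library left out, the counts with Mycl ran from 0 to 3 higher and from 1 to 7 lower, with c-Myc from 2 to 4 and from 10 to 31, and between the induced groups from 0 to 2 and from 1 to 11. Over all genes, higher calls in those fits ran from 17 to 539, from 897 to 2402 and from 40 to 979. Lower calls over all genes ran from 9 to 178, from 300 to 1844 and from 27 to 572. The members' median log2 fold change ran from -0.51 to -0.29, from -1.15 to -0.81 and from -0.53 to -0.17. Library totals shifted all genes by 0.131 with Mycl and 0.231 between the induced groups. No single member changed direction while called.

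With the replicate number as a term (replicate block), 2 members were lower with Mycl and 2 higher and 24 lower with c-Myc. Between the induced groups 2 were higher and 6 lower. Over all genes, 69 were lower with Mycl, 1418 higher and 943 lower with c-Myc, and 411 and 278 between the induced groups. Same-numbered livers did not deviate together throughout, so the numbers were not taken as pairs. Their correlations were 0.314, 0.0866 and 0.0353 for Mycl against controls, and -0.00384, 0.0116 and 0.000925 for c-Myc against controls. Between the induced groups they were -0.0486, 0.0631 and -0.187. Mycl liver 1, at 0.314 with control 1, stood at -0.151 and -0.156 with controls 2 and 3. Not every liver correlated best with its own number. With 3 livers a group, members under about 1 CPM rest on few counts.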

Other observations

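Outside families 1 to 4, 11 P450 genes met the same count rule. None passed with Mycl, while Cyp20a1 and Cyp26b1, the latter a retinoic acid hydroxylase, rose and Cyp27a1 and Cyp46a1 fell with c-Myc. Among all genes, 11.8% were called higher and 8.88% lower with c-Myc. Cyp7b1, an oxysterol hydroxylase that is male-biased in mouse liver, had 382, 396 and 442 CPM in controls, 97.8, 175 and 13.8 CPM with Mycl and 152, 94.2 and 167 CPM with c-Myc, with the lowest value in Mycl liver 3. It was picked out after its values were seen.

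Cyp2c39, a retinoic acid hydroxylase, was uneven among livers of 1 group. It had 0.766, 43.5 and 43.6 CPM in controls, 30.1, 1.68 and 4.57 CPM with Mycl and 87.1, 54.7 and 51.2 CPM with c-Myc. Control 1 and Mycl livers 2 and 3 were far below the others. Cyp46a1, which hydroxylates cholesterol mainly in brain, had 0.328, 13.6 and 14.2 CPM in controls and at most 0.813 CPM in any induced liver, so control 1 was again the low one. Both were picked out after their values were seen.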
